A study of Schizosaccharomyces pombe with 18 samples.

Results

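This account covers the DNA repair and checkpoint genes of the fission yeast *Schizosaccharomyces pombe*: the 49 probe sets, 1 for each of 49 genes, whose symbol in the array annotation begins with *rad*, *rhp*, *rev*, *hus*, *exo*, *msh*, *mlh*, *pms*, *rqh*, *crb*, *chk* or *cds* and a digit. They were chosen by name alone, from 2937 *S. pombe* probe sets with a gene name among the 10928 on the array. RNA was measured with 3 arrays for each of 6 groups. All cells were strain SP-Q01 (h-, *leu1-32*) in EMM2 medium. They carried a plasmid for *rpl32-2* or *rpl32-1*, paralogs that encode ribosomal protein L32, or the empty plasmid (WT), and were taken at an OD600 of 10 (early stationary phase) or 0.5 (log phase). The paralogs were overexpressed from a plasmid in cells that keep their own copies. The question was which genes change between the phases and which change when either paralog is overexpressed.

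A cell with damaged DNA or a stalled fork uses sensor kinases, a sliding clamp loaded at the lesion and effector kinases to hold the cell cycle, and sets of repair enzymes that cut out, copy across or recombine past the damage. In fission yeast these genes were found largely as *rad* (radiation sensitive) and *hus* (hydroxyurea sensitive) mutants, and *rhp* stands for a *rad* homolog of budding yeast. Log phase cells replicate and divide, while cells entering stationary phase stop doing so. The names do not all mean repair: by their known roles *exo2* (a cytoplasmic RNA exonuclease), *exo70* (a subunit of the exocyst, which docks secretory vesicles) and *crb3* (a ribosome biogenesis factor, also named *ipi3*) lie outside it. *exo5* is a mitochondrial DNA exonuclease in budding yeast. The annotation is old, and the reference now names *rad22* as *rad52*, *rad32* as *mre11*, *rhp54* as *rad54*, *rhp55* as *rad55* and *rhp57* as *rad57*.

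The deposited values (log2) did not share 1 distribution: the 18 arrays fell into 5 sets that run across the groups, so levels and changes here are quantile-normalized log2 values unless they are called deposited. WT early stationary phase array 3 and log phase array 3 labelled *rpl32-1* gave the weakest signal: 20 and 24 of the 49 members did not exceed background there, while this was so of 0 to 3 members on each other array. Of the members, 20 lay above background on all 18 arrays. The *rpl32-2* probe set was at 13.46, 8.80 and 7.72 on the early stationary phase arrays labelled *rpl32-2*, against 13.50, 13.58 and 13.70 in WT cells. In log phase it was at 13.79, 10.88 and 8.40 on the arrays so labelled, against 13.73, 13.78 and 13.78 in WT cells. It was thus below the WT range on most arrays that should hold more of it. On early stationary phase arrays labelled *rpl32-1*, the *rpl32-1* probe set was at 14.25, 13.55 and 11.68, against 13.48, 13.61 and 14.29 in WT cells. In log phase it was at 14.18, 14.11 and 14.37 on the arrays so labelled, against 13.54, 13.58 and 14.37 in WT cells, and each of the 3 lay above 2 of the 3 WT values. The sources used here do not say whether these probes read the plasmid transcript, so strains are named as the arrays are labelled. The RNA came from whole cultures, in which fewer cells of a kind and less RNA per cell cannot be told apart.

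Between the phases members changed in both directions, and in WT cells and on samples labelled *rpl32-1* the share that changed was close to that of all probe sets. A gene was called where its adjusted p in limma was under 0.05 and its change at least 2-fold, and a change is early stationary minus log phase. On samples labelled *rpl32-2*, 3 members (6.12%) were called, against 11.8% of all probe sets: 1 was higher (5.72% of all) and 2 were lower (6.09%). Samples labelled *rpl32-1* gave 12 members (24.5%), against 22.8% of all probe sets, with 9 higher (11.7%) and 3 lower (11.1%). WT cells gave 10 members (20.4%), against 18.8%, with 7 higher (9.74%) and 3 lower (9.09%). The median change of the members was 0.05, 0.25 and −0.02 on samples labelled *rpl32-2*, samples labelled *rpl32-1* and the WT arrays, beside −0.04, −0.09 and −0.07 for all probe sets. The counts and their directions depended on the scaling. With median centring 2 members were higher and 1 lower on samples labelled *rpl32-2* (12.8% of all probe sets called), 11 and 3 on samples labelled *rpl32-1* (24.1%) and 3 and 4 in WT cells (18.7%). With the values as deposited, 0 members were called on samples labelled *rpl32-2*, 1 on samples labelled *rpl32-1* and 1 in WT cells, with 3.23%, 3.92% and 1.8% of all probe sets called. Of all probe sets, deposited values called 94 higher and 1 lower on samples labelled *rpl32-2* and 81 and 34 on samples labelled *rpl32-1*, where the quantile-normalized values called 168 and 179 and 344 and 325. Without the 2 arrays of weakest signal the 3 counts were, in the same order, 3, 12 and 8, with 12.3%, 24.3% and 18.3% called, and with the set of arrays as a block 4, 5 and 11, with 14.3%, 16.2% and 19.2% called. Under the block 2 of the 5 members called on samples labelled *rpl32-1* were higher and 3 lower. Within a set, deposited values of 1 early stationary and 1 log phase array labelled *rpl32-2* differed by at least 2-fold upward in 6 and downward in 2 members (17.8% of all probe sets in either direction). For WT cells this was 5 and 2 members in a set with 1 array of each phase (18.9%) and 5 and 3 in a set with 1 early stationary phase array and the mean of 2 log phase arrays (15.9%). No set held both phases of samples labelled *rpl32-1*.

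In all, 16 of the 49 members were called in at least 1 strain, against 28.5% of all probe sets, and 0 in opposite directions. The kinase gene *cds1* rose and the clamp gene *hus1* fell in each strain as labelled, the call of *hus1* on samples labelled *rpl32-2* being lost when any of 4 single arrays was left out. The genes *rev7*, *rhp16* and *rhp55* rose, and *rhp18* fell, both on samples labelled *rpl32-1* and in WT cells, and *crb3* fell on samples labelled *rpl32-2* and those labelled *rpl32-1*. On samples labelled *rpl32-1* alone *rad50*, *rhp14*, *rev1*, *pms1* and *exo5* were called, and in WT cells alone *rad22*, *rad13*, *rad15* and *rad2*. Of the genes called in WT cells, WT early stationary phase array 3 did not read *hus1*, *rad22*, *rhp18* and *rad2* above background. Of those called on samples labelled *rpl32-1*, log phase array 3 so labelled did not read *hus1*, *rhp16*, *rhp14*, *rev7*, *rad50*, *pms1*, *rev1* and *exo5* above background. A call in 1 strain is not a difference between strains: the tests of the difference itself, given further on, called 0 members. The early stationary phase arrays lay wholly above those of log phase for 10 members and wholly below for 8 on samples labelled *rpl32-2*, for 19 and 9 on samples labelled *rpl32-1* and for 16 and 9 in WT cells, while 47.2%, 62.8% and 57.3% of all probe sets did not overlap.

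**Figure D1:**
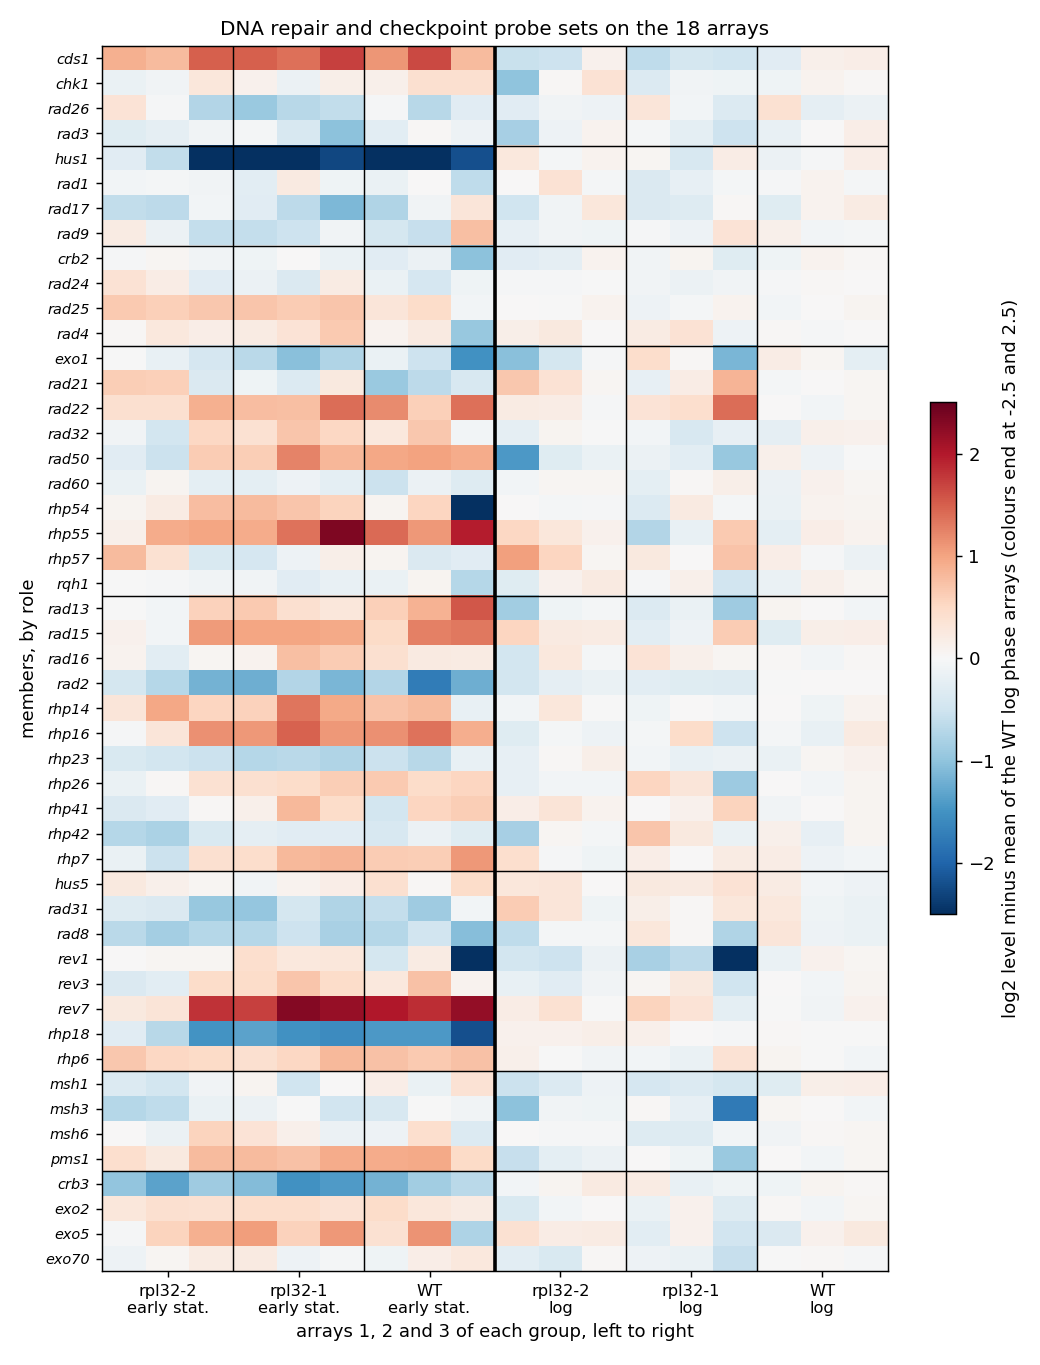
Level of each of the 49 members (rows, grouped by role) on each of the 18 arrays (columns, 3 per group), as the log2 difference from the WT log phase mean. The rows of *hus1* and *rhp18* are blue and those of *cds1* and *rev7* red in early stationary phase, except that *hus1*, *rhp18* and *rev7* are pale on arrays 1 and 2 labelled *rpl32-2*. *cds1* is a light red on those arrays (0.89 and 0.79) and on WT early stationary phase array 3 (0.80). On array 2 labelled *rpl32-2* *hus1* (−0.61) and *rhp18* (−0.70) are of similar depth.

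**Figure D2:**
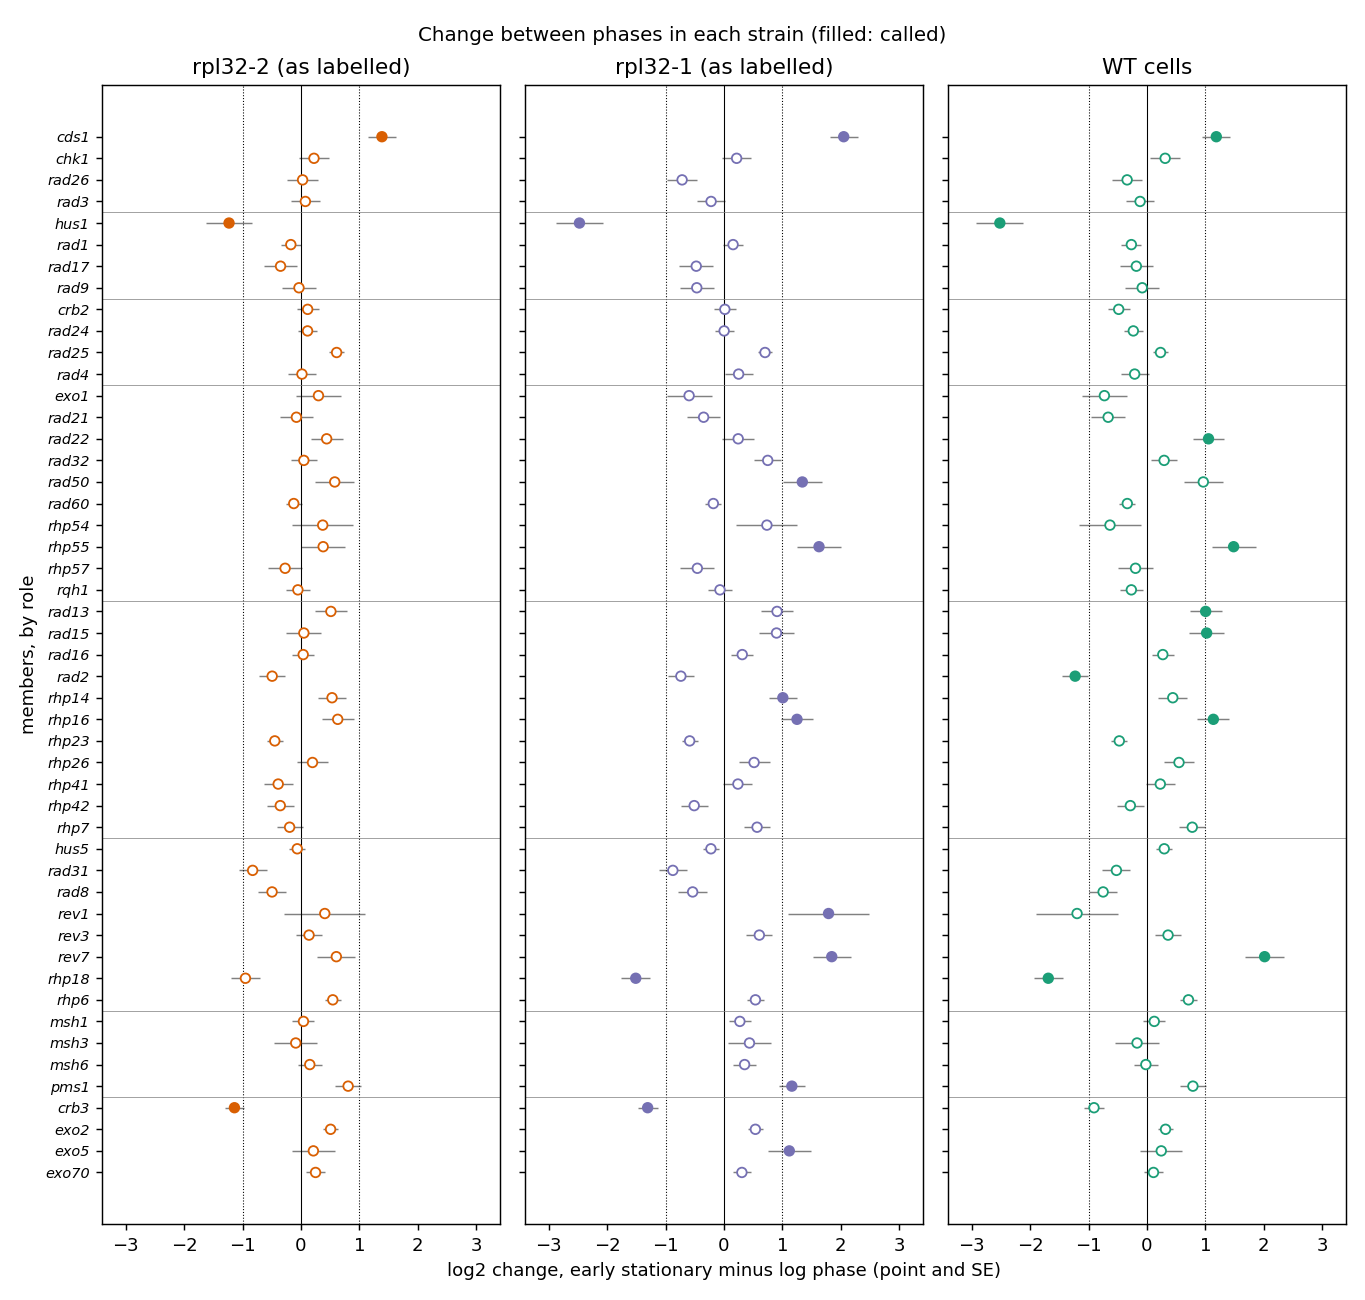
Change of each member between phases (log2, early stationary minus log phase; point and SE, 3 arrays per group) on samples labelled *rpl32-2*, samples labelled *rpl32-1* and the WT arrays. Filled points are the 3, 12 and 10 members called, and dotted lines mark 2-fold.

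Of the 4 genes of the kinase pathway, the effector kinase gene *cds1*, which acts when replication stalls, was the 1 that was called. In early stationary phase it was at 10.57, 10.47 and 11.19 on samples labelled *rpl32-2*, 11.18, 11.06 and 11.38 on samples labelled *rpl32-1* and 10.80, 11.34 and 10.48 in WT cells. In log phase it was at 9.13, 9.16 and 9.79 on samples labelled *rpl32-2*, 9.04, 9.25 and 9.18 on samples labelled *rpl32-1* and 9.40, 9.80 and 9.85 in WT cells. Every early stationary phase array lay above every log phase array. The change was 1.39 (SE 0.24, adjusted p 0.000576) on samples labelled *rpl32-2*, 2.05 (SE 0.24, adjusted p 1.31e-05) on samples labelled *rpl32-1* and 1.19 (SE 0.24, adjusted p 0.0013) in WT cells. Without WT early stationary phase array 2 the WT change was 0.95, just under 2-fold. The other effector kinase gene, *chk1*, which answers to DNA damage in G2, was at 6.18, 6.44 and 6.44 in WT early stationary phase cells, against 5.94, 6.13 and 6.06 in log phase cells. Its groups did not overlap there, but the change of 0.31 (SE 0.25, adjusted p 0.335) did not pass the test, and the probe set lay above background on 14 of the 18 arrays. WT early stationary phase array 3, of weakest signal, was not among the 14. *rad3*, the ATR-like sensor kinase gene, was at 7.83, 8.12 and 7.96 in WT early stationary phase, against 7.90, 8.10 and 8.26 in log phase, and these arrays overlapped. WT early stationary phase array 3 did not read *rad3* above background either. Its change was 0.07 on samples labelled *rpl32-2*, −0.22 on samples labelled *rpl32-1* and −0.12 in WT cells. *rad26*, whose product partners Rad3, had an adjusted p under 0.05 on samples labelled *rpl32-1* (−0.72 (SE 0.26, adjusted p 0.0318)) but not a 2-fold change.

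The 9-1-1 clamp is a ring of Rad9, Rad1 and Hus1 that marks damaged DNA and is loaded by Rad17. Its 3 genes did not move alike. *hus1* had the largest fall of the 49 members in WT cells. In early stationary phase it was at 7.75, 7.42 and 5.55 on samples labelled *rpl32-2*, 5.52, 5.23 and 5.77 on samples labelled *rpl32-1* and 5.44, 5.28 and 5.84 in WT cells. Log phase levels were 8.30, 7.997 and 8.13 on samples labelled *rpl32-2*, 8.09, 7.63 and 8.21 on samples labelled *rpl32-1* and 7.89, 8.01 and 8.21 in WT cells. WT arrays and samples labelled *rpl32-1* fell into well separated groups, whereas early stationary phase arrays 1 and 2 labelled *rpl32-2* stayed near the log phase level and array 3 did not. The change was −1.23 (SE 0.40, adjusted p 0.0274) on samples labelled *rpl32-2*, −2.47 (SE 0.40, adjusted p 0.000179) on samples labelled *rpl32-1* and −2.52 (SE 0.40, adjusted p 0.000207) in WT cells. On samples labelled *rpl32-2* it was −0.55 (adjusted p 0.0741) without early stationary phase array 3, and between −1.15 and −1.30 with adjusted p from 0.0548 to 0.0829 without log phase array 1, 2 or 3, so that each of these ended the call. Of the 25 changes of members called between phases, the fall of *hus1* in WT cells was the 1 that was called under each alternative run. *rad1* was at 9.51, 9.69 and 9.04 in WT early stationary phase, against 9.64, 9.77 and 9.63 in log phase, with overlap. *rad9* was at 7.51, 7.38 and 8.71 in WT early stationary phase, against 8.07, 7.88 and 7.89 in log phase, and the early stationary phase arrays lay on both sides of the log phase ones. The 8.71 is that of array 3, of weakest signal, which did not read *rad9* above background. Without it the change was −0.50. Neither passed the test, with WT changes of −0.27 for *rad1* and −0.08 for *rad9*, and *rad17* changed by −0.18.

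None of the 4 mediator and 14-3-3 genes was called between phases. *crb2*, whose product links the sensor kinase to Chk1, was at 9.60, 9.74 and 8.85 in WT early stationary phase, against 9.77, 9.96 and 9.91 in log phase. The low value is that of the array of weakest signal, and the change was −0.48 (SE 0.19, adjusted p 0.0508). *rad25*, a gene of a 14-3-3 protein that binds phosphorylated targets such as Cdc25, was at 13.33, 13.26 and 13.35 in early stationary phase on samples labelled *rpl32-2*, against 12.69, 12.67 and 12.76 in log phase. These arrays were tightly grouped and did not overlap, and the change of 0.61 (SE 0.12, adjusted p 0.00171) passed the test on p but was under 2-fold. On samples labelled *rpl32-1* it was 0.70 and in WT cells 0.23. *rad24*, the other 14-3-3 gene, changed by 0.11 on samples labelled *rpl32-2*, 0.00 on samples labelled *rpl32-1* and −0.23 in WT cells, and *rad4*, a scaffold of the checkpoint and of replication start, by 0.02 on samples labelled *rpl32-2*, 0.25 on samples labelled *rpl32-1* and −0.21 in WT cells. Whether probes of such related genes also bind the other transcript was not examined.

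**Figure D3:**
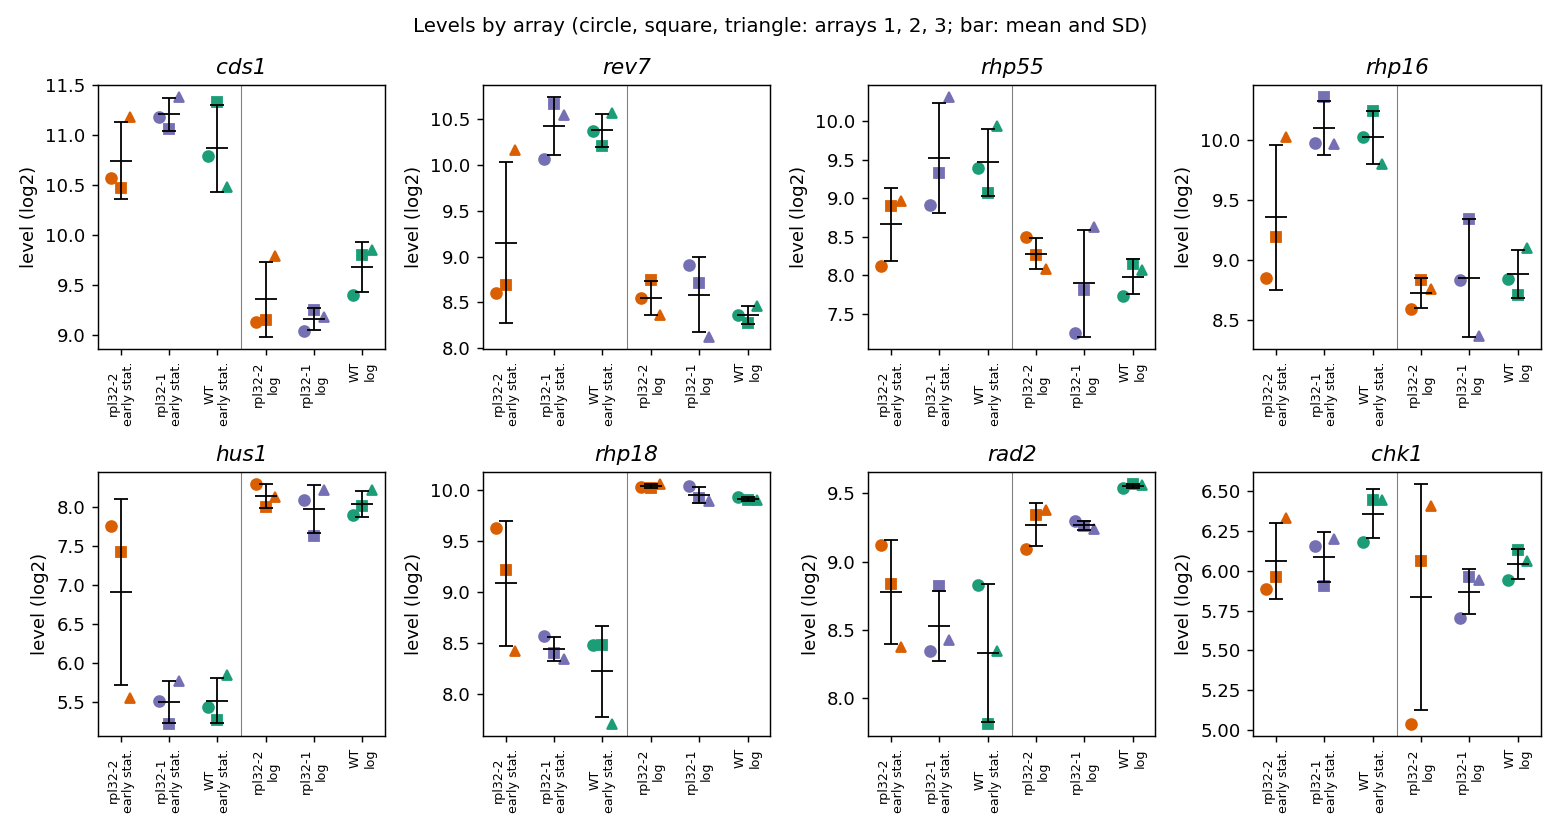
Quantile-normalized log2 levels of 8 members on each array (circle, square and triangle for arrays 1, 2 and 3), by group, with the mean and SD of 3 arrays. The early stationary phase arrays 1 and 2 labelled *rpl32-2* lie apart from array 3 in *hus1*, *rev7* and *rhp18*.

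Of 10 genes of double-strand break repair and chromosome structure, 3 were called in at least 1 strain (28.5% of all probe sets were), all as higher in early stationary phase. *rhp55* encodes a recombination mediator that acts on single-stranded DNA. In early stationary phase it was at 8.12, 8.90 and 8.96 on samples labelled *rpl32-2*, 8.92, 9.33 and 10.32 on samples labelled *rpl32-1* and 9.39, 9.07 and 9.94 in WT cells. Log phase levels were 8.49, 8.26 and 8.09 on samples labelled *rpl32-2*, 7.25, 7.81 and 8.63 on samples labelled *rpl32-1* and 7.73, 8.15 and 8.07 in WT cells. The phases did not overlap on samples labelled *rpl32-1* or in WT cells, where the changes were 1.63 (SE 0.38, adjusted p 0.00255) and 1.48 (SE 0.38, adjusted p 0.00555), but they did on samples labelled *rpl32-2*, where the change was 0.38 (SE 0.38, adjusted p 0.478). *rhp57*, whose product pairs with that of *rhp55*, changed by −0.27 on samples labelled *rpl32-2*, −0.46 on samples labelled *rpl32-1* and −0.20 in WT cells. *rad22*, which encodes the Rad52-type mediator of recombination, was at 8.25, 7.66 and 8.44 in WT early stationary phase, against 7.08, 6.9995 and 7.11 in log phase. The groups were apart, and the change of 1.05 (SE 0.27, adjusted p 0.00616) was 0.89 without WT early stationary phase array 3 and 0.99 without array 1, each of which ended the call. *rad50*, a subunit of the complex that tethers and trims broken ends, was at 9.51, 10.15 and 9.73 in early stationary phase on samples labelled *rpl32-1*, against 8.76, 8.65 and 7.96 in log phase. The lowest log phase value is that of the array of weak signal. Its change was 1.34 (SE 0.34, adjusted p 0.00421) there and 0.97 (SE 0.34, adjusted p 0.0306) in WT cells, short of 2-fold in WT. *rad32*, the nuclease subunit of the same complex, passed the test on p alone on samples labelled *rpl32-1* (0.75 (SE 0.23, adjusted p 0.0131)). The other 5 genes, *exo1*, *rad21*, *rad60*, *rhp54* and *rqh1*, had WT changes from −0.73 (*exo1*) to −0.27 (*rqh1*), and none passed the test on p in any strain. *rhp54* was at 8.75, 9.22 and 6.16 in WT early stationary phase, where array 3 is that of weakest signal.

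Excision repair cuts out ultraviolet lesions and other bulky damage, and 5 of its 11 genes were called in at least 1 strain, as were 28.5% of all probe sets. *rhp16*, whose product acts with Rhp7 on DNA that is not transcribed, rose. In early stationary phase it was at 8.85, 9.19 and 10.02 on samples labelled *rpl32-2*, 9.97, 10.36 and 9.97 on samples labelled *rpl32-1* and 10.02, 10.24 and 9.80 in WT cells. In log phase its levels were 8.59, 8.83 and 8.76 on samples labelled *rpl32-2*, 8.84, 9.35 and 8.37 on samples labelled *rpl32-1* and 8.84, 8.71 and 9.10 in WT cells. The phases were apart in each strain, with array 1 labelled *rpl32-2* close to log phase. The change was 0.63 (SE 0.27, adjusted p 0.0889) on samples labelled *rpl32-2*, 1.25 (SE 0.27, adjusted p 0.00171) on samples labelled *rpl32-1* and 1.14 (SE 0.27, adjusted p 0.00393) in WT cells. *rhp7* itself had −0.19 (SE 0.22, adjusted p 0.539) on samples labelled *rpl32-2*, 0.57 (SE 0.22, adjusted p 0.0444) on samples labelled *rpl32-1* and 0.78 (SE 0.22, adjusted p 0.011) in WT cells, under 2-fold throughout. *rad13*, the XPG-type nuclease gene, was at 8.20, 8.46 and 9.15 in WT early stationary phase, against 7.66, 7.60 and 7.53 in log phase. *rad15*, the gene of the XPD-type helicase of transcription factor TFIIH, was at 9.55, 10.32 and 10.38 in WT early stationary phase, against 8.76, 9.21 and 9.22 in log phase. Both were higher on every WT early stationary phase array, but their changes of 1.01 (SE 0.27, adjusted p 0.00844) for *rad13* and 1.02 (SE 0.30, adjusted p 0.0131) for *rad15* lie at the 2-fold limit. Without WT early stationary phase array 3 they were 0.73 and 0.88 and no longer called. The call of *rad13* also ended without WT log phase array 3 (0.97), and that of *rad15* without WT log phase array 1 (0.87) or early stationary phase array 2 (0.902). *rad2*, the flap endonuclease gene that also serves Okazaki fragments, fell in WT cells, with 8.82, 7.81 and 8.34 in early stationary phase, against 9.54, 9.57 and 9.56 in log phase. The log phase arrays were nearly equal and the early stationary ones spread, and the change was −1.23 (SE 0.23, adjusted p 0.000593). Without WT early stationary phase array 2 it was −0.97. *rhp14*, the XPA-type damage binding gene, was at 9.03, 9.79 and 9.40 in early stationary phase on samples labelled *rpl32-1*, against 8.33, 8.46 and 8.40 in log phase. These did not overlap, and the change of 1.01 (SE 0.25, adjusted p 0.00351) just passed 2-fold. It was 0.82 without early stationary phase array 2 and 0.98 without log phase array 1 labelled *rpl32-1*, and was then not called. *rhp23*, a ubiquitin-binding partner of damage recognition, was lower in each strain by less than 2-fold: −0.45 (SE 0.14, adjusted p 0.02) on samples labelled *rpl32-2*, −0.59 (SE 0.14, adjusted p 0.00262) on samples labelled *rpl32-1* and −0.47 (SE 0.14, adjusted p 0.0118) in WT cells. The remaining *rad16*, *rhp26*, *rhp41* and *rhp42* did not reach an adjusted p under 0.05 in any strain.

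Damage that is not removed can be copied past. Rhp6 and Rhp18 attach ubiquitin to the sliding clamp PCNA, and Rev1, Rev3 and Rev7 are parts of polymerases that copy across lesions. Of their genes *rev7* rose and *rhp18* fell in WT cells and on samples labelled *rpl32-1*. *rev7* was at 8.61, 8.69 and 10.17 on samples labelled *rpl32-2*, 10.07, 10.67 and 10.55 on samples labelled *rpl32-1* and 10.37, 10.21 and 10.57 in WT cells in early stationary phase. Its log phase levels were 8.55, 8.74 and 8.36 on samples labelled *rpl32-2*, 8.91, 8.71 and 8.12 on samples labelled *rpl32-1* and 8.36, 8.27 and 8.46 in WT cells. WT arrays and samples labelled *rpl32-1* were far apart between phases, while arrays 1 and 2 labelled *rpl32-2* were within the log phase range. The change was 0.61 (SE 0.33, adjusted p 0.169) on samples labelled *rpl32-2*, 1.85 (SE 0.33, adjusted p 0.000366) on samples labelled *rpl32-1* and 2.02 (SE 0.33, adjusted p 0.000238) in WT cells. *rhp18*, the ubiquitin ligase gene, was at 9.63, 9.21 and 8.42 on samples labelled *rpl32-2*, 8.57, 8.40 and 8.34 on samples labelled *rpl32-1* and 8.48, 8.48 and 7.71 in WT cells in early stationary phase. In log phase the gene was at 10.03, 10.02 and 10.06 on samples labelled *rpl32-2*, 10.04, 9.92 and 9.89 on samples labelled *rpl32-1* and 9.93, 9.90 and 9.90 in WT cells. Log phase arrays were nearly equal, and every early stationary phase array lay below them, least so arrays 1 and 2 labelled *rpl32-2*. The change was −0.95 (SE 0.25, adjusted p 0.00831) on samples labelled *rpl32-2*, −1.51 (SE 0.25, adjusted p 0.000179) on samples labelled *rpl32-1* and −1.69 (SE 0.25, adjusted p 0.000105) in WT cells. *rhp6*, the gene of its ubiquitin-conjugating partner, ran the other way below 2-fold, with 0.54 (SE 0.14, adjusted p 0.00844) on samples labelled *rpl32-2*, 0.54 (SE 0.14, adjusted p 0.00553) on samples labelled *rpl32-1* and 0.71 (SE 0.14, adjusted p 0.00106) in WT cells. *rev1* was at 6.81, 6.65 and 6.69 in early stationary phase on samples labelled *rpl32-1*, against 5.58, 5.75 and 3.45 in log phase. Of these log phase arrays 1 read the gene above background: array 1 did not, nor did array 3, which is that of weak signal. The change of 1.79 (SE 0.69, adjusted p 0.0436) was 1.05 (adjusted p 0.21) without array 3, and the call was lost on leaving out any of 13 of the 18 arrays. Most of the 13 are WT arrays or arrays labelled *rpl32-2*, which enter this comparison only through the spread that all groups share. Without any of those the change stayed at 1.79, with an adjusted p from 0.0502 to 0.0539. With log phase values raised to at least the lowest level read above background, their mean was 6.710, against 6.717 in early stationary phase. The 1.79 is thus not a measured size of change. *rev3*, the catalytic subunit gene, changed by 0.14 (SE 0.23, adjusted p 0.687) on samples labelled *rpl32-2*, 0.61 (SE 0.23, adjusted p 0.0363) on samples labelled *rpl32-1* and 0.36 (SE 0.23, adjusted p 0.205) in WT cells. Of the rest, *rad31* (SUMO activation), *hus5* (SUMO conjugation) and *rad8* (a Rad5-type ubiquitin ligase), 0 were called. *rad31* had an adjusted p under 0.05 on samples labelled *rpl32-2* (−0.83 (SE 0.24, adjusted p 0.0156)) and *rpl32-1* (−0.88 (SE 0.24, adjusted p 0.00732)), and *rad8* in WT cells (−0.75 (SE 0.25, adjusted p 0.0229)).

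Mismatch repair corrects copying errors behind the fork. Of its 4 genes *pms1* was called, on samples labelled *rpl32-1*. It was at 10.16, 10.12 and 10.31 in early stationary phase there, against 9.40, 9.26 and 8.45 in log phase. The groups were apart, and the change was 1.16 (SE 0.22, adjusted p 0.000644). Without log phase array 3, that of weak signal, it was 0.87 and not called. On samples labelled *rpl32-2* it was 0.81 (SE 0.22, adjusted p 0.0123) and in WT cells 0.79 (SE 0.22, adjusted p 0.0107), so that it passed the test on p in each strain. *msh6*, *msh3* and the mitochondrial *msh1* had changes between −0.17 (*msh3*, WT) and 0.44 (*msh3*, labelled *rpl32-1*), none past the test.

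The members named for other roles included *crb3*. It was at 9.82, 9.48 and 9.93 on samples labelled *rpl32-2*, 9.74, 9.30 and 9.40 on samples labelled *rpl32-1* and 9.63, 9.95 and 10.14 in WT cells in early stationary phase. Log phase levels were 10.74, 10.88 and 11.04 on samples labelled *rpl32-2*, 11.02, 10.63 and 10.71 on samples labelled *rpl32-1* and 10.71, 10.87 and 10.85 in WT cells. Every early stationary phase array was below every log phase one. The change was −1.14 (SE 0.17, adjusted p 0.000202) on samples labelled *rpl32-2*, −1.31 (SE 0.17, adjusted p 2.78e-05) on samples labelled *rpl32-1* and −0.91 (SE 0.17, adjusted p 0.000696) in WT cells, and the WT value is under 2-fold. *exo5* was at 5.91, 5.45 and 5.95 in early stationary phase on samples labelled *rpl32-1*, against 4.59, 4.97 and 4.39 in log phase. It met the rule for a call, but 0 of these 3 log phase arrays read it above background, so that no fold is given, and the call was lost on leaving out any of 3 single arrays (early stationary phase arrays 1 and 3 and log phase array 3, all labelled *rpl32-1*). *exo2* and *exo70* changed by less than 2-fold throughout.

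Genes of the same pathways outside the name rule were counted from a list of 74 symbols, of which 70 were measured and not already members. Between phases 3 rose and 4 fell on samples labelled *rpl32-2*, 6 rose and 10 fell on samples labelled *rpl32-1*, and 7 rose and 10 fell in WT cells, out of 70 in each, while 11.8%, 22.8% and 18.8% of all probe sets were called. Called in the same direction in all 3 were *mag2* and *mag1*, genes of the DNA glycosylase family, and *spd1*, an inhibitor of ribonucleotide reductase, which rose. Likewise *atl1* (an alkyltransferase-like protein), *slx1* (a structure-specific nuclease) and *rmi1* (a partner of the helicase Rqh1) fell. The change of *mag2* was 2.51 (SE 0.31, adjusted p 5.6e-05) on samples labelled *rpl32-2*, 3.90 (SE 0.31, adjusted p 8.87e-07) on samples labelled *rpl32-1* and 3.60 (SE 0.31, adjusted p 2.37e-06) in WT cells. That of *atl1* was −1.997 (SE 0.30, adjusted p 0.000218) on samples labelled *rpl32-2*, −2.10 (SE 0.30, adjusted p 6.18e-05) on samples labelled *rpl32-1* and −2.08 (SE 0.30, adjusted p 0.000104) in WT cells. Beyond these, *nse1*, a subunit of the Smc5/6 complex, fell on samples labelled *rpl32-2* and *rpl32-1*. In WT cells and on samples labelled *rpl32-1* the kinase gene *wee1*, *nse2* and *nbs1* rose, and *mik1*, *cdc22* (ribonucleotide reductase) and *mcl1* fell. In WT cells *thp1* also rose and *ssb2*, *ssb3*, *eso1* and *smc5* fell, and on samples labelled *rpl32-1* *rfc2*, *myh1* and *nth1* fell. How far the calls of this list rest on single arrays is not given here. In WT early stationary phase *smc5* was at 8.70, 9.06 and 8.32 and *mcl1* at 8.68, 8.77 and 7.92. The lowest value of each is that of array 3, of weakest signal.

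Set against WT cells of the same phase, 0 of the 49 members and 0% of all probe sets were called on the arrays of either strain in either phase. At an unadjusted p under 0.05 and 2-fold there were 3 and 0 members on samples labelled *rpl32-2* in early stationary and log phase, and 2 and 0 on samples labelled *rpl32-1*. Those 2 were *rhp54* and *rev1*, whose differences of 1.32 and 1.52 were 0.37 and 0.45 without WT early stationary phase array 3. The same measure took in 3.17%, 0.17%, 0.17% and 0.647% of all probe sets. On the early stationary phase arrays labelled *rpl32-2* 3 members lay wholly above and 7 wholly below the WT arrays (12.3% of all probe sets did not overlap), and in log phase again 3 and 7 (14.6%). On samples labelled *rpl32-1* it was 4 and 0 in early stationary phase (6.57%) and 3 and 8 in log phase (19.3%). The test of whether the phase change itself differs from WT also called 0 members, with a smallest adjusted p among members of 0.376 for samples labelled *rpl32-2* and 0.701 for samples labelled *rpl32-1*. At an unadjusted p under 0.05 and 2-fold it took in 2 members (3.68% of all probe sets) and 1 member (2.11%). Such p values do not show that the strains are alike. Differences from WT ran from −1.23 to 1.39 and −0.63 to 0.54 on samples labelled *rpl32-2* in early stationary and log phase, and from −0.56 to 1.52 and −1.47 to 0.72 on samples labelled *rpl32-1*. The −1.47 is that of *rev1*, which was −0.73 without log phase array 3 labelled *rpl32-1*.

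In log phase the members of smallest p on samples labelled *rpl32-1* were *rad22*, *cds1* and *msh1*. *rad22* was at 7.41, 7.49 and 8.47 on these arrays, against 7.08, 6.9995 and 7.11 in WT cells. The third value stands well above the other 2, but it is that of the array of weak signal, which did not read *rad22* above background. As deposited, *rad22* was lowest on that array, at 6.05, against 7.96 and 7.92 on arrays 1 and 2. The difference was 0.72 (SE 0.27, adjusted p 0.802), and 0.38 without that array. *cds1* differed by −0.52 (SE 0.24, adjusted p 0.804) and *msh1* by −0.40 (SE 0.19, adjusted p 0.804). On samples labelled *rpl32-2* *rad50* was at 7.47, 8.59 and 8.74 in log phase, against 9.04, 8.78 and 8.88 in WT cells, and differed by −0.63 (SE 0.34, adjusted p 0.961). Array 1 was far below the others, and without it the difference was −0.23. *rhp57* and *msh1* differed by 0.54 (SE 0.29, adjusted p 0.961) and −0.34 (SE 0.19, adjusted p 0.961). In early stationary phase on samples labelled *rpl32-1*, *rad25* was at 13.37, 13.30 and 13.37, against 12.98, 13.13 and 12.61 in WT cells. Its arrays were all above those of WT, and the difference was 0.44 (SE 0.12, adjusted p 0.927). *rad4* and *crb3* differed by 0.61 (SE 0.24, adjusted p 0.927) and −0.43 (SE 0.17, adjusted p 0.927), and *rad4* by 0.24 without WT early stationary phase array 3.

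The members nearest to the threshold were those of the early stationary phase arrays labelled *rpl32-2*. *rhp7* was at 9.24, 8.86 and 9.81 on these arrays, against 10.03, 10.03 and 10.48 in WT cells, a difference of −0.88 (SE 0.22, adjusted p 0.0962). *rev7* differed by −1.23 (SE 0.33, adjusted p 0.102), *rhp18* by 0.86 (SE 0.25, adjusted p 0.104) and *hus1* by 1.39 (SE 0.40, adjusted p 0.104), from the levels given above. In these genes array 3 lay closer to the WT early stationary phase arrays than arrays 1 and 2 did. The 3 arrays belong to 3 different sets. The 10 members called between the WT phases were also set against the 2 WT phase means. On array 1 9 of them, on array 2 7 and on array 3 0 lay nearer to the WT log phase mean than to the WT early stationary phase mean. Over the 553 probe sets called in WT cells the shares were 51.9%, 43.8% and 4.34%. For the 3 *rpl32-1*-labelled early stationary phase arrays the count was 0, 1 and 1 of the 10 members, beside 4.7%, 3.62% and 2.17% of the 553 probe sets. Both lists were picked by the difference between these same WT means, so the counts describe the arrays and are not a test. The calls of *rad13*, *rad15* and *rad22* were lost without WT early stationary phase array 3, of weakest signal.

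**Figure D4:**
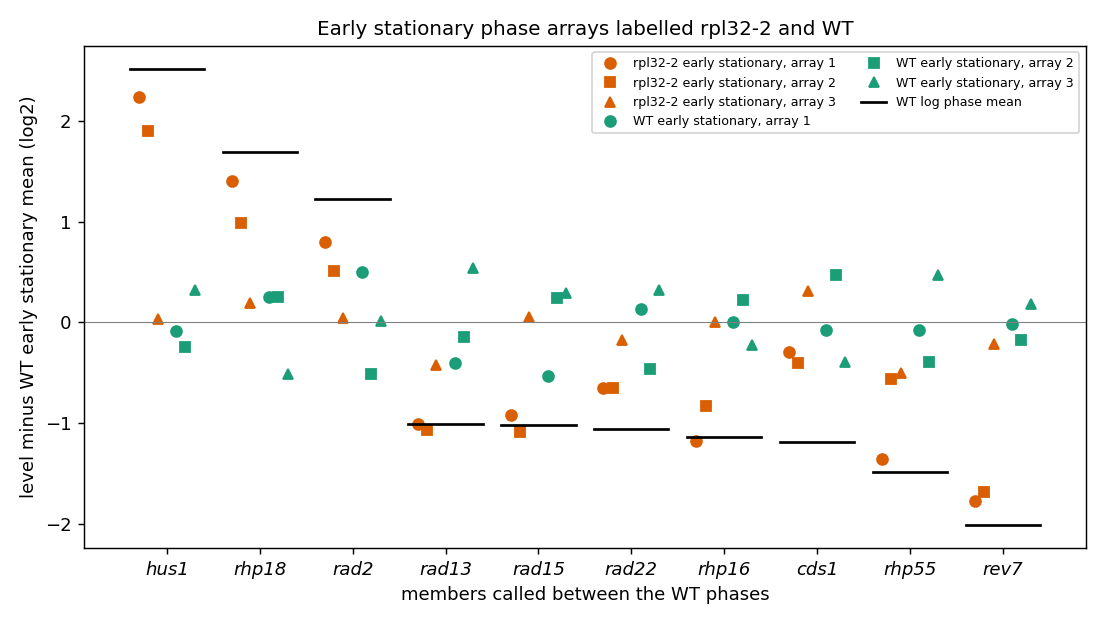
Level of the 10 members called between the WT phases on each early stationary phase array labelled *rpl32-2* (orange) and WT (green), as the log2 difference from the WT early stationary phase mean, with the WT log phase mean as a black bar. Arrays 1 and 2 labelled *rpl32-2* lie nearer to the bar for 9 and 7 of the 10 members and array 3 for 0.

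The deposited values gave the same split where an array had a WT partner in its own set. Array 1 labelled *rpl32-2* exceeded WT early stationary phase array 1 by 2.47 in *hus1*, 1.43 in *rad21* (a cohesin subunit gene) and 1.01 in *rhp18*, and differed from it by −1.55 in *rev7*, −1.08 in *rad50*, −1.04 in *rhp55* and −1.001 in *rhp16*. In that pair 3 members were at least 2-fold higher and 4 at least 2-fold lower (6.54% of all probe sets in either direction). Array 3 labelled *rpl32-2* and its partner, WT array 2, differed by 2-fold in 0 members (0.34% of all probe sets), with 0.43 in *hus1* and −0.04 in *rev7*. These are pairs of single arrays with no replicate check.

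Of the 18 fits that left out 1 array each, that without early stationary phase array 3 labelled *rpl32-2* called 8 members against WT cells in early stationary phase (6.54% of all probe sets called). They were *hus1*, *rad21* and *rhp18*, higher by 2.07, 1.26 and 1.20, and *rev7*, *rad50*, *rhp7*, *rad13* and *rad15*, with differences of −1.73, −1.37, −1.13, −1.04 and −1.002. The difference in phase change was then called for 5 members (4.56% of all probe sets): *hus1*, *rhp18*, *rev7*, *rhp7* and *rad15*. Array 3 is singled out here by its values in these same genes, so these counts describe how much rests on 1 array and their p values are not given as tests. Array weights, which count variable arrays for less, called 5 members in each comparison (5.28% and 6.64%): *hus1*, *rad21*, *rev7*, *rhp7* and *rad50*. They gave array 3 a weight of 0.173, against 0.966 and 2.28 for arrays 1 and 2, and so are no separate support. Whether array 3 or arrays 1 and 2 hold what their label says was not tested. The *rpl32-2* probe set, at 13.46, 8.80 and 7.72 on the 3 arrays, does not divide them in this way.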

How the data were processed

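RNA of 18 cultures was measured on Affymetrix GeneChip Yeast Genome 2.0 arrays. The deposited values are log2 intensities that the authors summarised with RMA in Partek, per the submitters' processing notes. The sources used here do not say which arrays were normalized together. Sets of arrays were formed by single linkage at a mean difference of ranked values of 0.2 (log2). The largest difference within a set was 0.175 and the smallest between sets 0.274. The values of 2937 *S. pombe* probe sets were quantile-normalized. limma 3.58.1 (R 4.3.3) then fitted a mean for each of 6 groups. Its two-sided p values were given Benjamini-Hochberg adjustment over all 2937 in each comparison. Background is the percentile 95 of 2601 *S. cerevisiae* probe sets of an array. Differences within a set use deposited values. Arrays carry no read depth, and 3 arrays per group limit the precision.

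The labels call the 3 arrays of a group biological replicates. Members were chosen by gene symbol, and all 49 matched a reference gene. Per-array values are given for members called in a comparison, for the 3 of smallest adjusted p in each comparison of 2 groups, and for *rad3*, *cds1*, *chk1*, *rad1*, *rad9*, *hus1* and *crb2* (26 members). The list of 74 other genes was written from general knowledge. The members, lists and rules were chosen with earlier results of these data known. Alternatives were deposited values, median centring, a filter on low values, blocks for sets of arrays and replicate numbers, array weights, the groups of the comparison alone, the methods' t-test, each array left out, and both arrays of weakest signal left out. A new quantile normalization without those 2 arrays was added after the data were seen. The fit was tested on simulated data. Python 3.11.15 with numpy 2.4.6, pandas 2.3.3 and scipy 1.17.1 was used for counts and matplotlib 3.10.9 for figures.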

Additional observations from a re-analysis of the deposited data

How the results depend on the processing

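With deposited values the members called between phases numbered 0 on samples labelled *rpl32-2*, 1 on samples labelled *rpl32-1* and 1 in WT cells, where the median change of all probe sets was 0.75, −0.13 and −0.65 (log2) before any scaling. With the set of arrays as a block 5 members were called on samples labelled *rpl32-1* (16.2% of all probe sets). After Benjamini-Hochberg adjustment the methods' t-test called 1 on samples labelled *rpl32-2*. In early stationary phase samples labelled *rpl32-2* against WT gave 5 members with array weights (5.28% of all probe sets) and 1 with the methods' t-test unadjusted. The difference in phase change gave 5 with array weights (6.64%). The cause of these differences was not tested. The share of all probe sets called by the t-test is not given here, so its counts are not a result about the members.

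With each array left out in turn, the counts between phases ran from 2 to 4 on samples labelled *rpl32-2*, from 10 to 13 on samples labelled *rpl32-1* and from 8 to 10 in WT cells. Against WT in early stationary phase they ran from 0 to 8 on samples labelled *rpl32-2*, and for the difference in phase change from 0 to 5. The 8 and 5 were reached without early stationary phase array 3 (6.54% and 4.56% of all probe sets). For both comparisons of samples labelled *rpl32-1* with WT, their difference in phase change and the log phase arrays labelled *rpl32-2* the count was 0 throughout. Shares of all probe sets are not given here for the other fits, so the ranges show only how far the counts moved.

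Of the 25 called member changes 0 reversed under any alternative. Among uncalled ones, deposited values turned *rad22* on the log phase arrays labelled *rpl32-1* against WT to −0.28, *rhp57* on samples labelled *rpl32-2* to −0.13 and *chk1* between WT phases to −0.43. The WT phase change of *rad9* was 0.095, 0.16 and −0.50 without WT early stationary phase array 1, 2 and 3. Same-numbered arrays of different groups are not paired by the labels. Their deviations had a median correlation of 0.062, with 21 of 45 pairs over 0.1 and 13 under −0.1, against a median of −0.032 for other numbers. For arrays of different groups in the same set the median was 0.216, against −0.070 for other sets. A block for replicate number gave 3, 12 and 10 members between phases on samples labelled *rpl32-2*, samples labelled *rpl32-1* and the WT arrays, and 0 in the other comparisons. The shares of all probe sets under that block are not given here.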

Other observations

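The arrays also carry 35 *S. cerevisiae* probe sets whose symbols would match the same names. Background was itself set on each array as a high percentile of the *S. cerevisiae* probe sets, to which these belong. Most *S. cerevisiae* probe sets thus lie at or below background by definition, so the counts that follow cannot test what the array reads without a matching transcript. Of the 35, 34 were above background on no array and 0 on all arrays. The exception was *CDS1*, above background on 2 arrays. In budding yeast *CDS1* encodes an enzyme of lipid synthesis and is not the counterpart of the fission yeast kinase gene *cds1*, so that a shared symbol does not mean a shared gene.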
